A study of Mus musculus with 6 samples.

Results

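Stereocilia are the actin-filled projections on top of the hair cells of the inner ear. Tip links, made of cadherin 23 and protocadherin 15, join the top of each stereocilium to the side of its taller neighbour and pull on the mechanotransduction channel when sound bends the bundle. Scaffold proteins hold the links to the actin core, and loss of the proteins of this complex causes inherited deafness. The 9 genes chosen here were the tip link cadherins Cdh23 and Pcdh15, the channel components Tmc1, Tmie and Lhfpl5, the scaffolds Ush1c (harmonin) and Whrn (whirlin), the actin bundler Espn (espin) and the membrane-linked bundle protein Loxhd1. They were found by matching Ensembl transcript identifiers to mouse gene symbols and adding up the counts of the listed transcripts of each gene. Of the 33676 genes with a listed transcript, 8 were members, because 0 of the 3 annotated transcripts of Lhfpl5 are listed, and this gene was not analysed here. All 8 passed the filter on low counts, as did 14118 genes in all.

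Bulk RNA was sequenced from the modiolus, the central bone of the cochlea in which the spiral ganglion neurons (SGNs) lie, in 3 control and 3 degenerated libraries of C57BL/6 mice, a strain known for early age-related hearing loss tied to Cdh23, which both groups share. The study's methods describe male mice of 8 weeks. Degenerated mice received 1 g/kg kanamycin and, after 30 min, 0.4 g/kg furosemide, a pair of drugs that kills hair cells, and were examined on day 30, whereas control mice received saline. The drugs act first on hair cells, so that SGN degeneration in this model follows the loss of the sensory epithelium. The labels give the cell type as spiral ganglion neuron, but the tissue was not sorted. In bulk samples, fewer cells of a type and less RNA per cell cannot be told apart. The labels do not say whether replicates came from separate animals, so p-values measure only the spread between these libraries, which may be technical.

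The table held 12480876 to 15549319 counts per library. Defining markers of neurons and of hair cells were both present: the summed level of 14 SGN markers was 9722 to 13077 CPM, which scales each count by the normalized library size, in control and 6318 to 9071 in degenerated libraries. Most of this sum came from Nefl, Nefm, Nefh and Snap25. Log2 fold changes, degenerated minus control, were positive for 5 and negative for 9 of the 14 SGN markers, with a median of -0.135. The summed level of the 8 outer hair cell markers with a listed transcript was 270 to 298 CPM in control and 83.2 to 126 CPM in degenerated libraries. Of these, Slc26a5 (prestin, the motor protein of outer hair cells) had 242, 137 and 122 counts in control and 2, 7 and 4 in degenerated libraries, and Ocm (oncomodulin) had 2273, 1973 and 2710 against 57, 48 and 10. Their log2 fold changes were -5.11 (SE 0.60) and -5.83 (SE 0.61), with adjusted p of 0.0901 and 0.0802 in edgeR's quasi-likelihood test. Chrna9 was at 0 throughout. Slc17a8 of inner hair cells, with 1 of 2 transcripts listed, was at 0 apart from 2 counts in degenerated replicate 1. Control replicate 3 stood apart by 500.1 CPM of skeletal muscle markers against 5.28 to 14.4 in the other 5 libraries, and blood and bone marrow markers ranged from 4899 to 52217 CPM across libraries. Their part in the results below was not tested.

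Whether stereocilia genes changed during SGN degeneration was asked for each gene. A gene was called if its absolute log2 fold change exceeded 0.2 and its unadjusted p was under 0.01, limits that the study's text gives for another comparison, and separately at a Benjamini-Hochberg adjusted p under 0.05. None of the 8 genes was called by either rule in edgeR's quasi-likelihood test, 0 had an unadjusted p under 0.05, and 0 were called by DESeq2, edgeR's exact test or limma-voom. Over all genes tested, 2.73% were called, 2.01% higher and 0.715% lower, 9.68% had an unadjusted p under 0.05, and 0% passed the adjusted limit. No member had groups that did not overlap, which held for 17.7% of all genes tested. Log2 fold changes, degenerated minus control, were positive in 4 genes and negative in 4, from -0.82 to 0.67, with a median of -0.06 beside -0.0034 over all genes tested. The 95% interval was narrowest for Whrn and widest for Cdh23. Each interval holds the changes that were compatible with the counts, and all 8 include 0. The smallest change that could be detected was not computed.

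**Figure D1:**
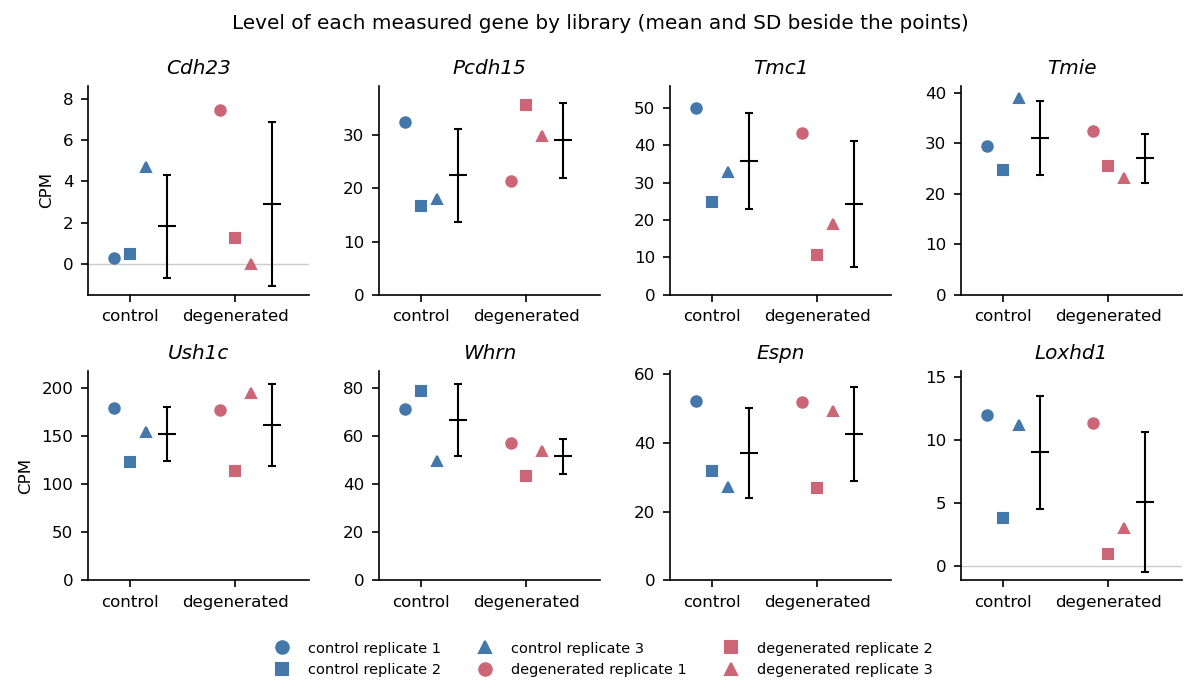
Normalized level in CPM (linear axis) of the 8 measured genes in the 3 control and the 3 degenerated libraries, with the mean and SD (n = 3) as bars beside the points. The groups overlap in all 8 panels, and in degenerated replicate 1 Tmc1 and Loxhd1 lie close to control replicate 1, above the other degenerated replicates.

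Compared per length, as CPM per kilobase of the listed transcripts, the genes had the same order in both groups. Ush1c was highest with 67.7 ± 11.4 CPM per kilobase in control (SD, n = 3) and 77.6 ± 19.6 in degenerated libraries. Espn (19.97 ± 7.79 in control) and Whrn (19.8 ± 4.69) followed and did not differ beyond their spread. Tmie (11.1 ± 2.61) and Tmc1 (8.81 ± 3.16) also overlapped, as did Pcdh15 (2.75 ± 1.03) and Loxhd1 (2.26 ± 1.10). Cdh23 was lowest, with 0.277 ± 0.229 in control and 0.369 ± 0.460 in degenerated libraries. In degenerated libraries the per-length level of Pcdh15 was 4.59 ± 0.719 and that of Loxhd1 1.66 ± 1.85.

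Among the tip link cadherins, Cdh23, which forms the upper end of the link, was close to the limit of detection. It is annotated at chr10:60302748-60696490 (GRCm38, minus strand), and 4 of its 16 annotated transcripts are listed. It had 4, 7 and 74 counts in control replicates 1, 2 and 3 and 109, 18 and 0 in degenerated replicates 1, 2 and 3. A count of 0 allows up to 3 counts, for counting error only. Control replicate 3 and degenerated replicate 1 held most counts, each from another transcript: Cdh23-201 had 69 counts in control replicate 3 and 13 in degenerated replicate 2, while Cdh23-209 had 101 counts in degenerated replicate 1 alone. The third counted transcript, Cdh23-208, had 0 to 8 counts in every library. The log2 fold change was 0.67 with an SE of 1.68 and a 95% interval of -3.44 to 4.77 (adjusted p = 0.919 in edgeR's quasi-likelihood test). Without degenerated replicate 1 it was -1.51, so that its direction rested on that library.

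Pcdh15, which forms the lower end of the link near the channel, lies at chr10:73099342-74649737 (plus strand), with 25 of 41 transcripts listed. Its level was 32.6, 16.7 and 18.1 CPM in control and 21.5, 35.6 and 29.9 CPM in degenerated libraries. Control replicate 1 and degenerated replicates 2 and 3 were high and the groups overlapped. The log2 fold change was 0.37 (SE 0.35, 95% interval -0.47 to 1.21, adjusted p = 0.779 in edgeR's quasi-likelihood test). The division of these counts among transcripts differed between libraries more than the sum did. Pcdh15-234, a protein-coding transcript of 35 exons, held 91.1% (95% Wilson interval 88.2% to 93.3%), 95.8% (92.4% to 97.7%) and 94.0% (90.6% to 96.2%) of the counts in control libraries. In degenerated libraries it held 20.1% (16.01% to 24.8%), 74.5% (70.5% to 78.1%) and 57.8% (52.8% to 62.7%). These intervals cover counting error only, since reads without molecular identifiers are not independent molecules. The share was lower in every degenerated library than in any control library, and the counts outside Pcdh15-234 came from other transcripts in each: 166 counts of Pcdh15-208 were found in degenerated replicate 1 alone, 87 of Pcdh15-207 in degenerated replicate 3 alone, and 75 of Pcdh15-236 in degenerated replicate 2, beside 15 in degenerated replicate 1. With 3 against 3 libraries the smallest two-sided p that an exact permutation test can give is 0.1, and the share was not tested. How often transcript shares fail to overlap between the groups over all genes was not computed. As a level, Pcdh15-234 was 30.6, 16.3 and 17.2 CPM in control and 4.28, 26.1 and 17.3 CPM in degenerated libraries, with a log2 fold change of -0.43 (SE 0.68). Pcdh15-240, a retained intron, was the only other transcript of the gene that was tested, at 0.69 (SE 0.58).

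Tmc1, the pore-forming component of the transduction channel, lies at chr19:20783458-20954202 (minus strand) and was counted through 1 of its 4 transcripts, Tmc1-201. It had 755, 350 and 516 counts in control and 633, 153 and 240 in degenerated libraries, or 49.98, 24.8 and 32.9 against 43.3, 10.8 and 18.9 CPM. Degenerated replicates 2 and 3 were below every control library, whereas degenerated replicate 1 was above control replicates 2 and 3. The log2 fold change was -0.56 (SE 0.56, 95% interval -1.92 to 0.80, adjusted p = 0.789 in edgeR's quasi-likelihood test), and without degenerated replicate 1 it was -1.28. Tmie, a small membrane protein that the channel needs to work, lies at chr9:110865711-110880113 (minus strand), with 1 of 3 transcripts listed. Its level was 29.5, 24.6 and 39.0 CPM in control and 32.5, 25.4 and 23.05 CPM in degenerated libraries. Only degenerated replicate 3 was below all control libraries, and the log2 fold change was -0.20 (SE 0.25, 95% interval -0.81 to 0.41, adjusted p = 0.833 in the same test).

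Among the scaffolds, Ush1c encodes harmonin, whose PDZ domains bind the tails of the tip link cadherins. Long forms of harmonin are those known from the hair bundle, whereas shorter forms are found in several epithelia. The gene lies at chr7:46195350-46238503 (minus strand), and all 9 of its transcripts are listed. It was the highest member, at 179, 122 and 154 CPM in control and 177, 113 and 194 CPM in degenerated libraries. The log2 fold change of this sum was 0.09 (SE 0.25, 95% interval -0.51 to 0.69, adjusted p = 0.929 in edgeR's quasi-likelihood test). Its transcripts differed in direction. The sequences at which the 3 longest transcripts of the gene, each of 27 exons, differ in exon 26 are shown because, apart from the transcript ends, these few bases are what sets the transcripts apart. They were read from the GENCODE M21 transcripts (GRCm38, minus strand, coding sequence) with 15 bases on each side, and capitals mark the bases that the other transcript of the pair lacks. The first pair differs by 23 bases at chr7:46196798-46196820, at the 5′ end of the exon:
Ush1c-201: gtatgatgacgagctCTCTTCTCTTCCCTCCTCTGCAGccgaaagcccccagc
Ush1c-204: gtatgatgacgagctccgaaagcccccagc
The second pair differs by 8 bases at chr7:46196704-46196711, at the 3′ end of the exon:
Ush1c-206: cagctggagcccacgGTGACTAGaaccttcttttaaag
Ush1c-201: cagctggagcccacgaaccttcttttaaag
Neither 23 nor 8 is a multiple of 3, so that each pair reads on in another frame. The coding sequence is 2730 bases in Ush1c-201, 2673 in Ush1c-206 and 2577 in Ush1c-204, which is annotated as subject to nonsense-mediated decay.

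Ush1c-201 was higher in all 3 degenerated libraries, at 17.0, 14.9 and 25.2 CPM, than in control libraries, at 7.85, 10.05 and 5.69 CPM. Its log2 fold change of 1.28 (SE 0.37, 95% interval 0.36 to 2.19) had the smallest p among the transcripts of the 8 genes, with an adjusted p = 0.592 in edgeR's quasi-likelihood test over 26161 transcripts, and was not called. Ush1c-206 was less abundant, with 14, 19 and 14 counts in control and 31, 27 and 28 in degenerated libraries, also without overlap. Its log2 fold change was 0.93 (SE 0.35, adjusted p = 0.637 in the same test). Ush1c-204 had 1095, 565 and 1066 counts in control and 891, 75 and 41 in degenerated libraries. Degenerated replicate 1 lay within the control range, and degenerated replicates 2 and 3 were below it. As a share of the gene's counts, Ush1c-204 was 40.5% (95% Wilson interval 38.7% to 42.4%), 32.7% (30.5% to 34.9%) and 44.1% (42.1% to 46.1%) in control, and 34.4% (32.6% to 36.2%), 4.68% (3.75% to 5.82%) and 1.67% (1.23% to 2.25%) in degenerated libraries. Its log2 fold change was -1.42 (SE 1.15, adjusted p = 0.835 in edgeR's quasi-likelihood test). Without degenerated replicate 1 it was -3.86 (adjusted p = 0.280 in the same test), which passed the unadjusted limits.

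Ush1c-202, a coding transcript of 21 exons with 1644 coding bases, was the most abundant form in every library. It held 50.2%, 53.1% and 46.0% of the gene's counts in control and 46.9%, 70.8% and 77.3% in degenerated libraries, the lowest of these with a 95% Wilson interval of 44.1% to 48.0% and the highest of 75.6% to 78.9%. Its level was 92.6, 66.4 and 72.0 CPM against 82.6, 78.6 and 149.7 CPM, with a log2 fold change of 0.43 (SE 0.30). Reads that Ush1c-201, Ush1c-204 and Ush1c-206 share cannot be assigned to 1 of them by sequence, so their sum was also taken. It was 83.5, 52.3 and 75.6 CPM in control and 79.7, 22.0 and 30.7 CPM in degenerated libraries, so that degenerated replicates 2 and 3 were below all control libraries and degenerated replicate 1 was not. Ush1c-203 (a retained intron) and Ush1c-207 had log2 fold changes of 0.25 (SE 0.31) and 1.12 (SE 1.01).

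Whrn encodes whirlin, a PDZ scaffold of the stereocilia tips and of the ankle links at their base, and lies at chr4:63414910-63495991 (minus strand), with 6 of 17 transcripts listed. Its level was 71.2, 78.5 and 49.6 CPM in control and 57.1, 43.5 and 53.7 CPM in degenerated libraries. Control replicates 1 and 2 were above all degenerated libraries, and control replicate 3 lay among them. With a log2 fold change of -0.37 (SE 0.22, 95% interval -0.90 to 0.16), Whrn had the smallest p of the 8 genes (adjusted p = 0.648 in edgeR's quasi-likelihood test). Its main coding transcripts differ by 3 bases in exon 10 of 12, at chr4:63416591-63416593 (GRCm38), shown here because nearly all of their reads are common to both:
Whrn-201: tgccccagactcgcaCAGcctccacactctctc
Whrn-206: tgccccagactcgcacctccacactctctc
The capitals mark the bases that Whrn-206 lacks, and the reading frame is kept. Their sum was 47.8, 51.6 and 37.1 CPM in control and 45.6, 26.2 and 40.8 CPM in degenerated libraries, with overlap. Taken apart, the log2 fold change was -0.24 (SE 0.26) for Whrn-201 and -0.31 (SE 0.42) for Whrn-206. Whrn-217, annotated as a retained intron, was 24.3, 27.4 and 12.1 CPM in control and 9.39, 14.8 and 8.44 CPM in degenerated libraries, where only degenerated replicate 2 reached the control range. Its log2 fold change was -0.97 (SE 0.43, adjusted p = 0.683 in edgeR's quasi-likelihood test). Whrn-202, a shorter coding form of 7 exons, had 19, 17 and 14 counts against 26, 23 and 18. Relative to library size these did not overlap (0.906 to 1.30 against 1.42 to 1.77 CPM), and the log2 fold change was 0.48 (SE 0.34, adjusted p = 0.807 in the same test).

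Espn encodes espin, which bundles the actin filaments of stereocilia. It lies at chr4:152120331-152152371 (minus strand), with 11 of 20 transcripts listed. Its level was 52.0, 31.8 and 27.2 CPM in control and 51.7, 26.8 and 49.2 CPM in degenerated libraries, and the groups overlapped almost fully. The log2 fold change was 0.20 (SE 0.36, 95% interval -0.67 to 1.08, adjusted p = 0.884 in edgeR's quasi-likelihood test). Most counts came from 3 transcripts. Espn-220, the longest listed with 12 exons and 4215 coding bases, had 259, 166 and 201 counts in control and 219, 49 and 152 in degenerated libraries, with a log2 fold change of -0.50 (SE 0.58). Espn-218, a non-coding processed transcript of 7 exons, was 23.3, 12.7 and 8.09 CPM against 23.6, 18.3 and 26.2 CPM, at 0.63 (SE 0.45). Espn-217, a retained intron, was at -0.07 (SE 0.58). The share of Espn-220 in the gene's counts was 33.0%, 37.0% and 47.1% in control libraries (the lowest with a 95% Wilson interval of 29.8% to 36.3%) and 29.0%, 12.9% and 24.4% in degenerated libraries (the highest with 25.8% to 32.3%). These shares did not overlap as values, though the intervals of control replicate 1 and degenerated replicate 1 did. For these shares, too, no background over all genes was computed.

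**Figure D2:**
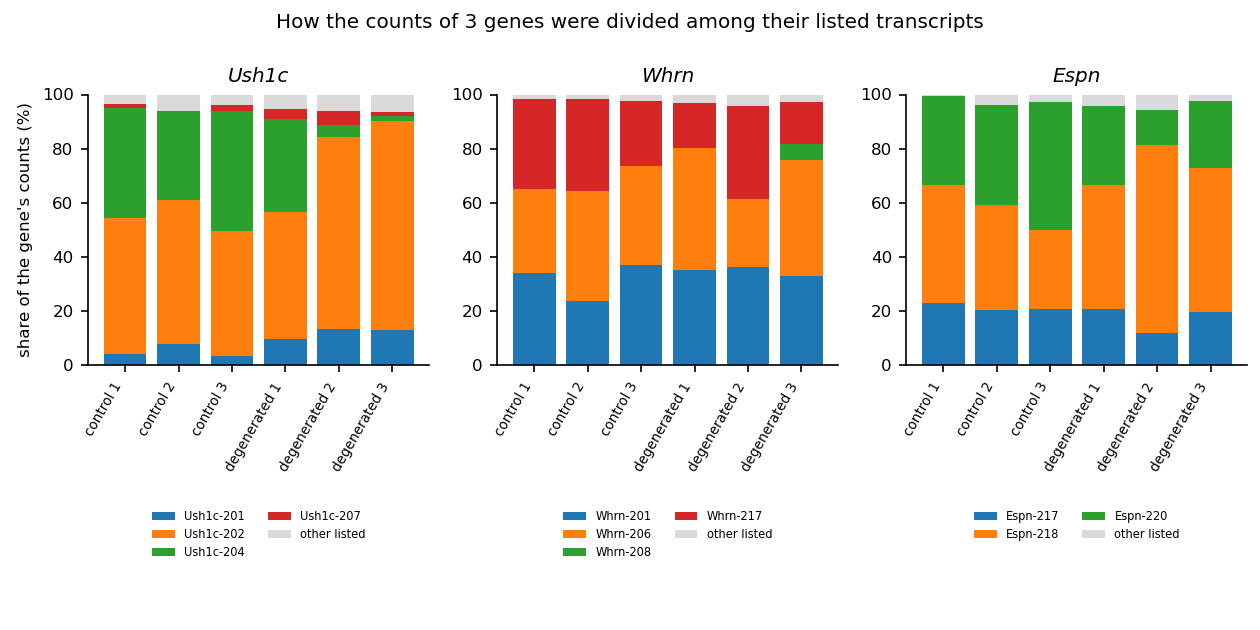
Share of a gene's counts (%, 0 to 100) held by each listed transcript of Ush1c, Whrn and Espn in the 6 libraries; transcripts that reach 5% of the gene in no library are pooled as other listed. In degenerated replicates 2 and 3 Ush1c-204 held 4.68% and 1.67% of Ush1c counts, against 32.7% to 44.1% in the control libraries and 34.4% in degenerated replicate 1.

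Loxhd1 encodes a protein of PLAT domains along the stereocilia membrane that is needed for lasting hair cell function. It lies at chr18:77281958-77442930 (plus strand), with 4 of 5 transcripts listed. It had 181, 54 and 175 counts in control and 166, 13 and 38 in degenerated libraries, or 11.98, 3.82 and 11.2 against 11.4, 0.916 and 2.999 CPM. As for Tmc1, degenerated replicates 2 and 3 were below every control library and degenerated replicate 1 was not. The log2 fold change was -0.82, the largest decrease of the 8 genes, with an SE of 0.94 and a 95% interval of -3.11 to 1.47 (adjusted p = 0.818 in edgeR's quasi-likelihood test). Without degenerated replicate 1 it was -2.20, which also did not pass. The libraries drew on different transcripts: 143 of the 181 counts of control replicate 1 came from Loxhd1-201, a non-coding transcript with 0 to 8 counts in the other libraries, whereas the coding transcript Loxhd1-205, of 40 exons, had 0, 38 and 61 counts in control and 64, 13 and 15 in degenerated libraries. The other coding transcript, Loxhd1-204, had 35, 0 and 62 counts against 25, 0 and 0.

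Over all 9 genes, 61 of 118 annotated transcripts are listed. Of these, 50 had counts, 13 of them in 1 library only, and 20 passed the filter and were tested. None of the 20 was called by either rule in edgeR's quasi-likelihood test, where 1.79% of the 26161 transcripts tested were called by the unadjusted rule (1.14% higher and 0.65% lower) and 0.0153% by the adjusted one. An unadjusted p under 0.05 was found for 2 of the 20, beside 7.55% of all transcripts. Groups did not overlap for 3 of the 20, Ush1c-201, Ush1c-206 and Whrn-202, beside 16.4% of all transcripts, which is near the background. Log2 fold changes were positive for 9 and negative for 11, with a median of -0.06 beside 0.0068 over all transcripts. DESeq2 called 1 of the 20, Ush1c-201, at a log2 fold change of 1.26 (adjusted p = 0.0564), while edgeR's exact test and limma-voom called 0.

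**Figure D3:**
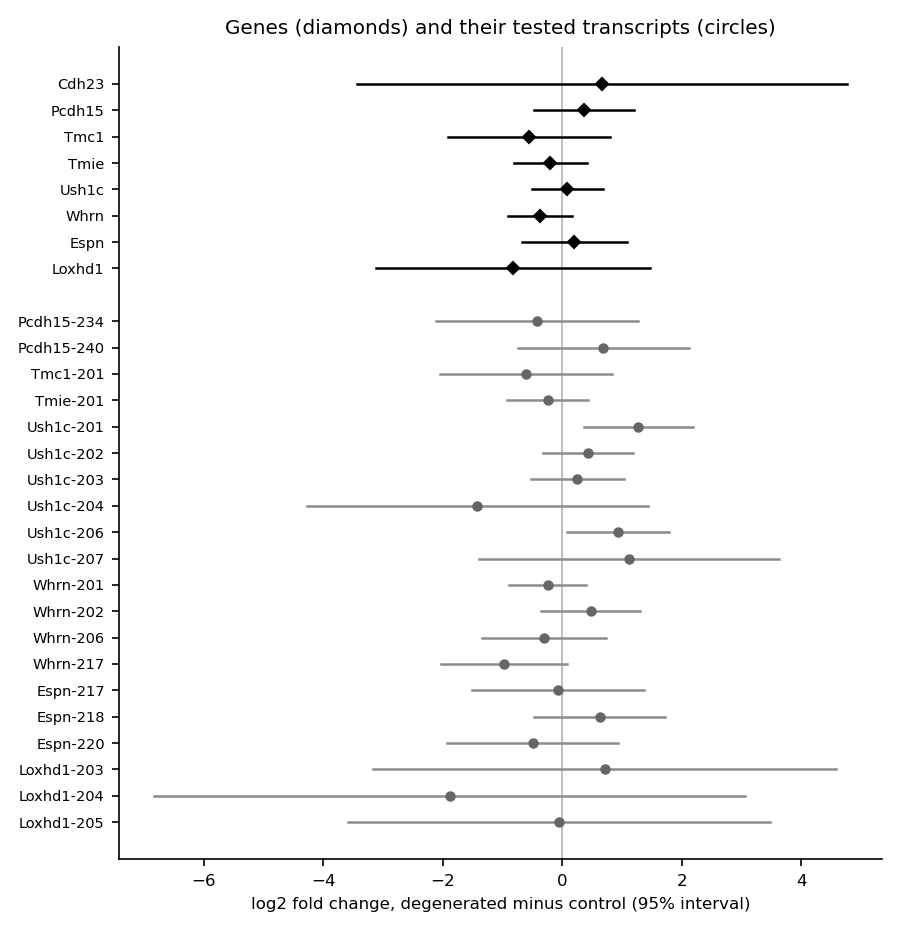
Log2 fold change, degenerated minus control, with its 95% interval for the 8 genes (diamonds) and their 20 tested transcripts (circles). All gene intervals include 0, and of the transcript intervals those of Ush1c-201 (0.36 to 2.19) and Ush1c-206 (0.080 to 1.78) do not.

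The pattern of Tmc1 and Loxhd1 across libraries was set beside that of hair cell genes. Both had the same order of the 6 libraries from high to low, which was control replicate 1, degenerated replicate 1, control replicates 3 and 2, and degenerated replicates 3 and 2. The same order was found for Otof (otoferlin, of the hair cell synapse), at 312.5, 192.5 and 201.6 CPM in control and 256.7, 80.2 and 142.5 CPM in degenerated libraries. Pou4f3, a transcription factor of hair cells, also had it, at 43.0, 28.4 and 34.6 CPM against 37.8, 7.47 and 15.4 CPM. So did the sum of Ush1c-201, Ush1c-204 and Ush1c-206, and Espn-220, for which control replicate 2 and degenerated replicate 3 nearly tied. This order was noticed in the values and is given without a test. Among all 14118 genes tested, 31 (0.22%) had it, among the 8 members 2 and among the 34 other stereocilia genes tested 0. The order was defined by Tmc1, which is therefore in the 31 and in the 2 by construction, so these numbers are no measure of enrichment. Otof and Pou4f3 were the only 2 of the 10 tested inner and general hair cell markers with it. Atoh1, Gfi1, Lhx3, Cabp2, Barhl1, Pvalb and Calb2 had other orders, as did Rasd2, which was also the only one of the 10 with a positive log2 fold change (0.61). Log2 fold changes of Otof and Pou4f3 were -0.56 (SE 0.44) and -0.81 (SE 0.59), with adjusted p of 0.735 and 0.708 in edgeR's quasi-likelihood test.

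In contrast with the members, Slc26a5 and Ocm were low in all 3 degenerated libraries, degenerated replicate 1 included. The hair cell genes of this tissue thus included ones near control level in degenerated replicate 1 (Tmc1, Loxhd1, Otof, Pou4f3) and ones below 4 CPM there (Slc26a5, Ocm). The 11 inner and general hair cell markers with a listed transcript summed to 3308 to 4787 CPM in control and 1650 to 2374 CPM in degenerated libraries. Most of that sum came from Calb2 and Pvalb, which neurons also express, and both were lower in degenerated libraries at -1.07 and -0.81. Supporting cell markers summed to 1420 to 1766 CPM in control and 2027 to 2070 CPM in degenerated libraries and macrophage markers to 432 to 492 and 561 to 743 CPM, both without overlap. Most of these sums came from Gjb2 and Slc1a3 and from C1qb and C1qc. Log2 fold changes were positive for 6 and negative for 3 of the 9 tested supporting cell markers. For the 6 tested macrophage markers these numbers were 5 and 1. Groups did not overlap for 1 of the 9 and 3 of the 6, beside 17.7% of all genes. Aif1, a macrophage marker that was not tested, was 15.1, 0.0707 and 16.2 CPM in control and 0.137, 0 and 0 in degenerated libraries. Schwann cell and satellite glia markers summed to 5555 to 9853 and 4939 to 7747 CPM, with overlap. Bone markers summed to 856 to 1369 CPM in control and 319 to 610 CPM in degenerated libraries, without overlap. All 6 tested bone markers had negative log2 fold changes, with a median of -1.35. Groups did not overlap for 5 of the 6, beside 17.7% of all genes. What part bone had in the results of the members was not tested. The summed level of the 8 members was 303 to 426 CPM in control and 257 to 402 CPM in degenerated libraries.

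**Figure D4:**
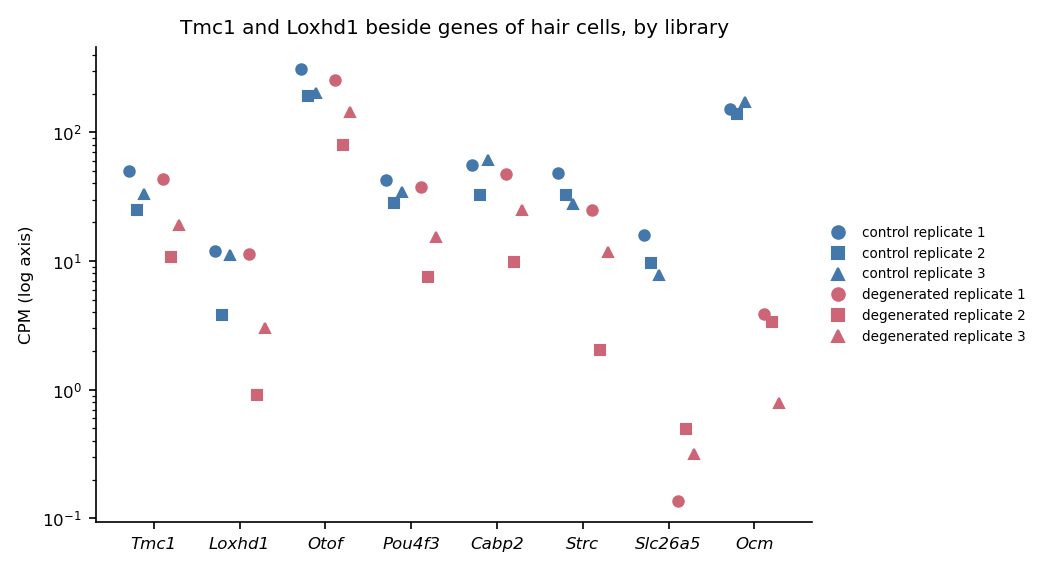
Level in CPM (log axis) of Tmc1 and Loxhd1 in each library beside hair cell genes (Otof, Pou4f3, Cabp2), Strc and the outer hair cell genes Slc26a5 and Ocm. Degenerated replicate 1 (circles) lies near the controls for Tmc1, Loxhd1, Otof and Pou4f3 and far below them for Slc26a5 (0.137 CPM) and Ocm (3.90 CPM).

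Other genes of the hair bundle were taken from a list of 43, of which 42 had a listed transcript and 34 were tested. By the unadjusted rule 2 of the 34 were called higher and 2 lower, beside 2.01% and 0.715% of all genes, and 0 passed the adjusted limit in edgeR's quasi-likelihood test, where 4 had an unadjusted p under 0.05. Log2 fold changes were positive for 9 and negative for 25, with a median of -0.26 beside -0.0034 over all genes tested. Groups did not overlap for 3 higher and 4 lower genes, beside 17.7% of all genes.

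Among 8 tip link and transduction partners, of which 6 were tested, 1 was called, Cib2, a calcium-binding partner of the TMC channel proteins. It fell in all 3 degenerated libraries, at 95.3, 99.2 and 86.3 CPM against 187, 151 and 182 CPM in control, with a log2 fold change of -0.89 (SE 0.13, adjusted p = 0.178 in edgeR's quasi-likelihood test). Unlike Tmc1, it was as low in degenerated replicate 1 as in the others. Its order of libraries was that of Nefl, Nefm, Nefh and Snap25, whereas the other SGN markers had other orders. This match was noticed in the values, and the share of all genes tested with this order was not computed. Which cells of the modiolus the counts of Cib2 came from was not tested. Myo1c, an unconventional myosin, had the third-largest increase of the 34 genes at 0.71 (SE 0.35) and was not called. Tmc2, the early channel relative of Tmc1, had 0 counts in all libraries, and Tomt had no listed transcript and was not analysed here. None of the 12 tested of 14 ankle link and base genes was called, and 3 of them had a positive log2 fold change and 9 a negative one.

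Of the 21 genes of the actin core and tip, with which Cdc14a, Pjvk, Strc and Tmc3 were listed, 16 were tested. Myo15a, the motor that carries whirlin to the stereocilia tips, fell from 103, 77.5 and 63.5 CPM in control to 9.17, 12.7 and 27.3 CPM in degenerated libraries, at a log2 fold change of -2.31 (SE 0.46, adjusted p = 0.277 in edgeR's quasi-likelihood test). Its cargo Whrn was at -0.37 in the same fit. Cdc14a, a phosphatase gene tied to inherited deafness, rose from 9.93, 1.84 and 8.04 CPM to 58.2, 92.7 and 115 CPM, at 3.74 (SE 0.67, adjusted p = 0.244 in the same test). Gnai3, a G protein subunit that marks the tips of the tallest row, rose from 281, 282 and 310 CPM to 367, 388 and 403 CPM, at 0.41 (SE 0.10, adjusted p = 0.327 in the same test). Both genes are also used outside hair cells. Gnai3 missed the unadjusted limit in 5 of 6 fits that left out a library, all but the fit without control replicate 3, with log2 fold changes of 0.37 to 0.43. Myo15a missed it without degenerated replicate 2, at -2.16. The adjusted p of these calls depended on the test: with DESeq2 all 4 were under 0.05 (adjusted p = 7.10e-06 for Cib2, 0.000214 for Myo15a, 6.15e-07 for Cdc14a and 0.0218 for Gnai3). With edgeR's exact test 3 were (adjusted p = 0.0261 for Cib2, 0.00287 for Myo15a and 6.56e-05 for Cdc14a, against 0.631 for Gnai3), and with limma-voom 0 were, the lowest adjusted p being 0.181. The next-largest changes were not called: Strc (stereocilin, of the links that tie outer hair cell stereocilia together) was 48.6, 32.3 and 27.8 CPM against 24.8, 2.04 and 11.8 CPM at -1.49 (SE 0.82), Pjvk was at -0.98 (SE 0.62) and Tmc3 at 1.27 (SE 0.56).

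**Figure D5:**
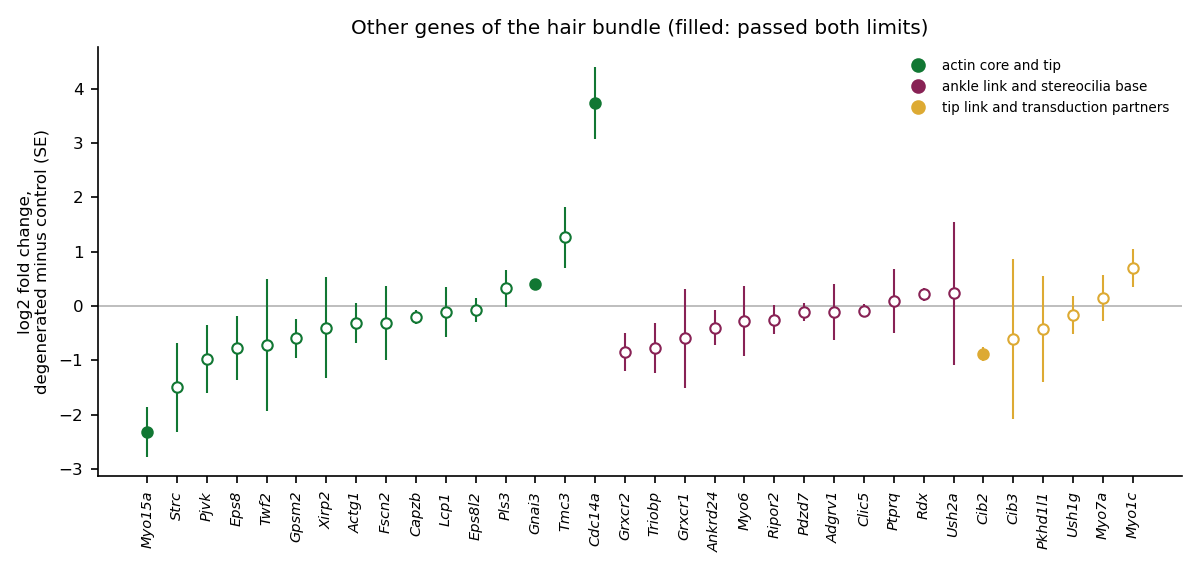
Log2 fold change, degenerated minus control, with its SE for the 34 tested other stereocilia genes, coloured by group of the list and filled where both unadjusted limits were passed. The filled points are Myo15a (-2.31), Cib2 (-0.89), Gnai3 (0.41) and Cdc14a (3.74), and 25 of the 34 points lie below 0.

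The 5 tested genes most like the mean standardized level of the 8 members, by Pearson correlation of log2(CPM + 1) over the 6 libraries, were Adamts19 (r = 0.992), Mindy4b-ps (0.986), Snhg18 (0.979), Snhg12 (0.979) and Kcnk2 (0.974). These values describe 6 libraries of 2 groups and carry no test, and 107 of 14118 genes had an r above 0.9. The mean standardized level of the members was highest in control replicate 1 (0.61) and degenerated replicate 1 (0.61) and lowest in degenerated replicate 2 (-0.80).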

How the data were processed

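RNA of 6 modiolus libraries, 3 control and 3 degenerated, was grouped by the labels. Per the study's methods, the authors aligned reads with Hisat2 and evaluated expression with StringTie, whereas the submitters' processing notes name Bowtie 0.12.2 and the builds mm8 and mm10 without a role. How reads were counted per transcript was not stated. The authors deposited raw counts per Ensembl transcript, without normalization, for 65535 transcripts. With its header line this is the row limit of older spreadsheet formats, so the table may hold only part of the counted transcripts. Of these, 65272 matched GENCODE M21 (GRCm38), where 141767 are annotated, and 263 with 0.125% of counts were left out. A gene's level is the sum over its listed transcripts alone, so a shift to an unlisted transcript lowers it. Reads shared by transcripts or overlapping genes were divided by the authors' counting, and strand was not stated.

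Genes and transcripts were tested separately with edgeR 4.0.16 (R 4.3.3, filter by filterByExpr, TMM factors of 0.983 to 1.02 for genes, robust quasi-likelihood F test, no covariates), with Benjamini-Hochberg adjustment over all features tested. The common biological coefficient of variation was 0.488 for genes and 0.694 for transcripts. Replicates of a group had Pearson correlations of 0.913 to 0.948 on log2(CPM + 1), and none were duplicates. Correlations between the groups reached similar values. Control replicate 1 correlated at 0.942 with degenerated replicate 1, against 0.913 and 0.923 with control replicates 2 and 3. Control replicate 2 correlated best with degenerated replicate 3, at 0.936. CPM use the TMM factors of the fit they belong to, so gene and transcript CPM differ slightly. Alternatives were edgeR's exact test, limma-voom (limma 3.58.1), DESeq2 1.42.0, RLE and upper-quartile factors, other filters (none, or a mean count of 10), the replicate number as a block, genes with every transcript listed, and each library left out. Scripts were tested on simulated data. Named genes were all members and their transcripts, every called gene of the other stereocilia list with its 3 largest increases and decreases, and hair cell markers. The members and lists were chosen with earlier results of these data known.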

Additional observations from a re-analysis of the deposited data

How the results depend on the processing

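None of the 8 genes was called under any of the 14 alternatives, nor were any at an adjusted p under 0.05. The count of called transcripts of these genes was 0 in the reported fit, 1 with DESeq2, and 0 to 1 when a library was left out: Ush1c-204 at -3.86 without degenerated replicate 1, and Pcdh15-201 (0, 0 and 0 counts in control, 37, 15 and 0 in degenerated libraries) without degenerated replicate 3. The count of calls among other stereocilia genes was 4 in the reported fit, 2 with the replicate block and 3 to 4 when a library was left out. The genes behind this count were not the same in every fit. Without degenerated replicate 2, Gnai3 and Myo15a missed the limit while 3 genes were called, so a gene outside the reported 4 was among them. The block also took the calls over all genes from 284 higher and 101 lower to 160 and 58, and over transcripts from 297 and 170 to 139 and 84. With DESeq2, 479 genes were higher and 306 lower, and 658 and 557 transcripts. An adjusted p under 0.05 was reached by 382 genes and 535 transcripts in DESeq2. The numbers were 115 and 184 for the exact test of edgeR and 0 and 4 for its quasi-likelihood test. Same-numbered libraries had correlations of deviations of 0.16, -0.090 and 0.067, so the numbers were not taken to pair the libraries, and control replicates 1 and 3 and degenerated replicate 1 correlated best with their own number while the other 3 libraries did not. Gnai3 lost its call in edgeR's exact test, and Gnai3 and Myo15a with the replicate block, at 0.41 and -2.44 on the log2 scale.

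Directions turned, without a call, with limma-voom for Cdh23 (-0.21), Loxhd1-203 (-0.54) and Loxhd1-205 (1.25), with the replicate block for Loxhd1-203 (-0.29), and with upper-quartile factors for Loxhd1-205 (0.019). With a library left out, log2 fold changes ran from -1.51 to 2.89 for Cdh23, -0.068 to 0.28 for Ush1c, -0.99 to 0.031 for Pcdh15-234, -0.53 to 4.33e-06 for Whrn-206, -0.35 to 0.35 for Espn-217, -0.72 to 1.75 for Loxhd1-203 and -1.10 to 0.64 for Loxhd1-205. The cause was not tested. Cdh23 held at most 109 counts in a library and these Loxhd1 transcripts at most 76. Pcdh15, Tmc1, Tmie, Whrn, Espn and Loxhd1 kept their direction under every alternative run.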
